A study of Homo sapiens with 15 samples.

Results

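Semaphorins, ephrins, netrins, Slits and their receptors were followed through 5 consecutive days of definitive endoderm differentiation of human embryonic stem cells. The genes were taken by their symbols: 20 semaphorins of classes 3 to 7 (SEMA), 9 plexins (PLXN), 2 neuropilins (NRP), 14 Eph receptors (EPH), 8 ephrins (EFN), 3 Slits (SLIT), 4 Robo receptors (ROBO), 4 Unc5 receptors (UNC5) and 4 netrins (NTN). That gave 68 of the 23346 gene symbols counted. The cells were H9, a single established human embryonic stem cell line. On day 0 they were undifferentiated and kept in E8, a defined maintenance medium. From day 1 to day 4 they were in Advanced RPMI 1640 with activin A, a ligand that acts through the receptors used by Nodal, and for the first 24 hours the medium also held CHIR99021, which inhibits GSK3 and so turns on Wnt signalling. Each day had 3 bulk RNA-seq libraries, numbered 1, 2 and 4, which makes 15 in all. Days 1 to 4 differed from day 0 in medium as well as in added factors, and the parts of these in a difference cannot be told apart.

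Guidance genes were named for steering growing axons, but the same ligands and receptors also set cell adhesion, repulsion and migration in other tissues, the early embryo included. Semaphorins signal mainly through plexins, and secreted class 3 semaphorins mostly need a neuropilin as the binding partner. Netrins act through DCC, neogenin and Unc5 receptors, Slits act through Robo receptors, and ephrins are membrane-bound ligands that signal to Eph receptor kinases on neighbouring cells. At gastrulation, cells leave an epithelium at the primitive streak and sort into mesoderm and endoderm, a setting in which Eph and semaphorin signalling are known to act.

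The deposited counts summed to between 54723184 and 145857940 per library. Values are given as CPM (counts scaled to a common total) with library sizes adjusted by TMM, a method that aligns libraries on the bulk of their genes, and a mean is given ± SD with n = 3. A count of 3 was 0.0206 to 0.0548 CPM of the unadjusted library total, depending on the library. A gene with no count is given as 0 CPM. Libraries of a day differed far more than counting noise allows, and whether they were separate cultures is not in the labels. All p-values thus reflect the spread between these samples alone, which may be technical. The summed level of 7 pluripotency genes was 1762 to 2185 CPM on day 0 and 172 to 322 CPM on day 4, and that of 8 definitive endoderm genes was 30.1 to 37.3 CPM on day 0 and 5038 to 6800 CPM on day 2. Replicate 1 of days 3 and 4 stood apart: its endoderm sum was 1318 CPM on day 3 against 6279 and 3641, and 1168 CPM on day 4 against 5184 and 3917, while its sum of 6 cardiac and lateral mesoderm genes was 299 CPM on day 3 against 67.4 and 129, and 153.0 CPM on day 4 against 48.0 and 114. These libraries lay above the other pair of their day in 18 of the 66 guidance genes tested and below it in 15 on day 3, and above in 25 and below in 27 on day 4. The same counts over all genes were not made, so they do not show whether the guidance genes stood out in these libraries. The part of the replicate 1 difference in the results was not tested, and results that are lost without both libraries are named. Replicate 4 of day 2 also differed from the other pair of its day. Its cardiac and lateral mesoderm sum was 239 CPM against 69.9 and 114, and its sum of 6 primitive streak genes was 536 CPM against 270 and 224. Its endoderm sum was 5038 CPM against 6244 and 6800. The part of that difference was not tested either. The sum of 8 endothelial markers was 50.01 to 369 CPM over all libraries, of which KDR made up 46.0 to 366 CPM and TEK 1.81 to 15.7 CPM, while CDH5, PECAM1 and EMCN stayed at or under 2.34 CPM in every library. The sum of 8 neural markers was 62.4 to 231 CPM, highest in replicates 2 and 4 of day 4, with TUBB3 at 30.4 to 207 CPM, PAX6 at 0.250 to 60.5 CPM and STMN2 at 0.190 to 55.8 CPM, while SOX1, NEUROG2 and ELAVL3 were under 1 CPM on every day. The part of these cell types in the results was not tested. Exons of 14 members, among them NRP1, NRP2, EPHA4, EPHB2, SEMA5A, SEMA6A, SLIT3 and UNC5C, overlap a gene on the opposite strand, and whether the counting used strand is not given in the sources used here. In bulk RNA, fewer cells of a type and less RNA per cell cannot be told apart.

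Most of the guidance genes changed, and most calls between consecutive days fell in the first 2 steps. On day 1 against day 0, 16 of the 66 tested members were higher (24.2%) and 9 were lower (13.6%) at an adjusted p under 0.05, where 5.49% of all 17401 genes tested were higher and 4.88% lower. From day 1 to day 2, when CHIR99021 had been withdrawn, 14 members were higher (21.2%) and 2 lower (3.03%), against 4.93% and 3.34% of all genes. Day 3 differed from day 2 in 2 members, both higher, and in 0.661% of all genes higher and 0.287% lower. The replicate number was also fitted as a block over all 15 libraries. Same-numbered libraries deviated together in all 3 pairs of days 2 and 3, but not in every pair over the other days. With that block, 5 members were higher on day 3. The share of all genes called with the block is not given, so that count has no background beside it. For the 0 members lower in that step, 1 (1.52%) had an unadjusted p under 0.05 in edgeR, beside 1086 of all genes (6.24%). DESeq2 called 0 members lower, beside 340 of all genes. ROBO4 and NTN3 had too few counts to be tested and stayed at 0 to 0.0785 CPM and 0 to 0.255 CPM.

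No member was called between day 3 and day 4 by edgeR, and 0% of all genes were in either direction. In that step 10 of the 66 members (15.2%) and 1074 of all genes (6.17%) had an unadjusted p under 0.05, and DESeq2 called 1 member, ROBO2, which was lower, and 66 of all genes. Over the whole course, day 4 exceeded day 0 in 34 members (51.5%) and was below it in 6 (9.09%), where 18% of all genes were higher and 16.2% lower. The median log2 fold change of the members tested was 0.53 for day 1 against day 0, 0.41 for day 2 against day 1, 0.36 for day 3 against day 2, 0.05 for day 4 against day 3 and 1.36 for day 4 against day 0, and over all genes tested these medians were -0.03, 0.00, 0.01, 0.01 and -0.02. Tested jointly over the 5 days, 47 members (71.2%) were called, where 37.3% of all genes were. The 9 members lower on day 1 became 3 without replicate 1 of day 1 and 4 without replicate 2 of day 1. The 2 members higher on day 3 became 0 without day 2 replicate 1 or 2 or day 3 replicate 1, and 1 without day 1 replicate 1, 2 or 4 or day 4 replicate 4. The 6 members lower on day 4 than on day 0 became 1 without replicate 2 of day 4 and 3 without both replicate 1 libraries of days 3 and 4. Leaving a library out weakens the test for every gene. The shares of all genes called in those fits are not given, so these counts have no background beside them.

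**Figure D1:**
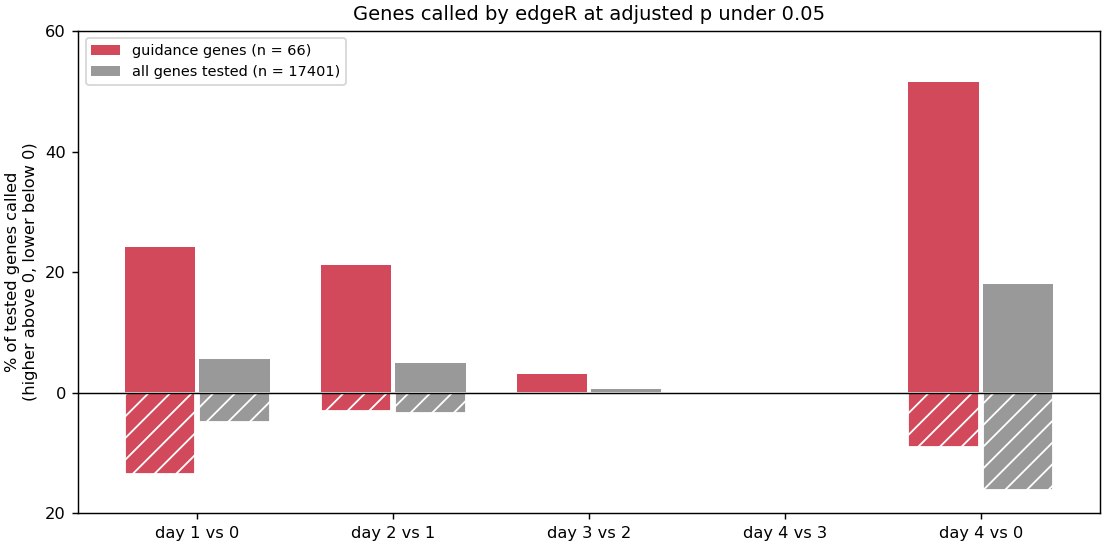
Bars give the percent of the 66 tested guidance genes and of all 17401 genes tested that edgeR called higher or lower at an adjusted p under 0.05 in each comparison of days. The members reach 24.2% higher on day 1 and 51.5% higher on day 4 against day 0, and both sets are at 0 between day 3 and day 4.

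The members did not move as a block. Among the 47 called jointly, 6 had their highest day mean on day 0, 5 on day 1, 8 on day 2, 14 on day 3 and 14 on day 4. These are 12.8%, 10.6%, 17.0%, 29.8% and 29.8% of the members called, and of all 6498 jointly called genes the shares were 35.3%, 15.8%, 7.06%, 19.4% and 22.4%. The highest day was read from the means alone, so this split does not show that days 2, 3 and 4 differ. A dip, called lower on day 1 and then higher on day 2, was seen in SEMA6D, SEMA5B, PLXNA4 and UNC5B, which is 4 of 66 (6.06%) beside 0.707% of all genes. Rises in both steps were called for NRP2, PLXNA2, SEMA3E, SEMA5A and EPHB3, which is 7.58% of the members beside 0.592% of all genes. SEMA3C rose on day 1 and fell on day 2, which is 1.52% of the members beside 0.925% of all genes. In these first 3 steps the libraries of the days compared did not overlap for any called member, and for day 4 against day 0 they overlapped for EPHA3 and EPHA6 only. Overlap was not counted over all genes, so its absence is not shown to be a trait of the guidance genes.

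**Figure D2:**
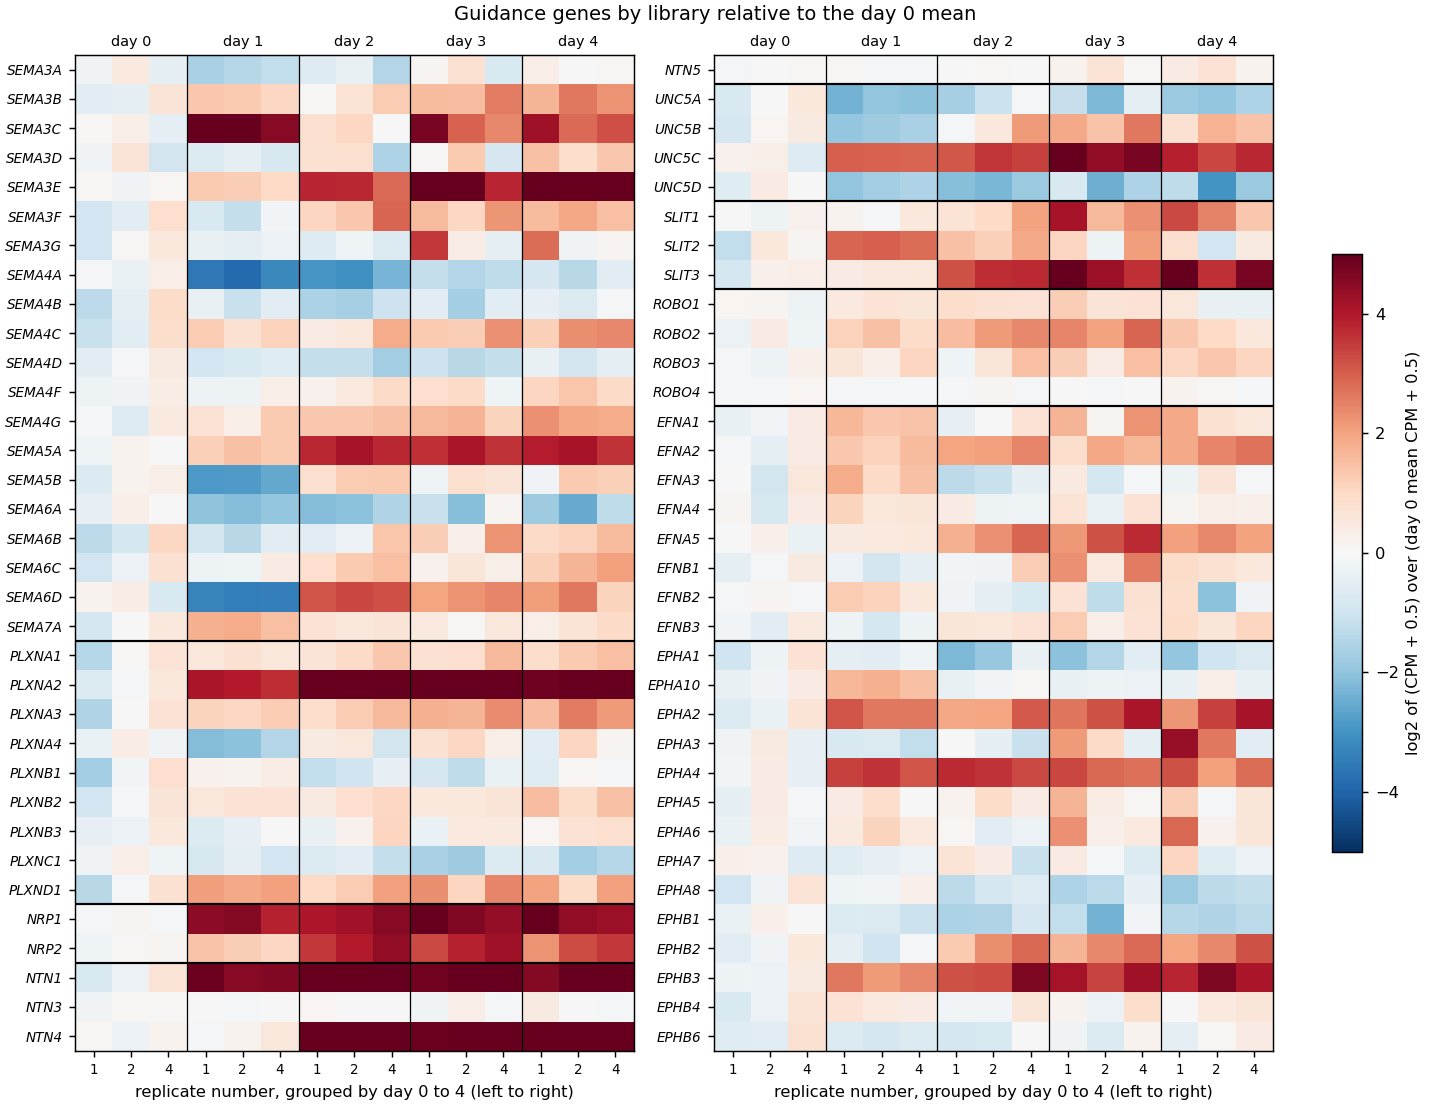
Levels of all 68 guidance genes (rows, by family) in the 15 libraries (columns, by day and replicate), as log2 of CPM + 0.5 over the gene's day 0 mean CPM + 0.5, with colours ending at 5 in either direction. The NTN1, NTN4, NRP1, NRP2 and PLXNA2 rows turn high from day 1 or 2 onward, while SEMA6A and UNC5D stay below their day 0 level in most libraries.

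SEMA6D, a transmembrane semaphorin whose known receptor is plexin A1, dipped on day 1 and made the largest step of all members on day 2. The values of replicates 1, 2 and 4, in that order here and below, were 22.7, 26.3 and 11.8 CPM on day 0, 1.55, 1.41 and 1.43 on day 1 and 184, 207 and 194 on day 2. SEMA6D then stood at 80.6, 98.2 and 114 CPM on day 3 and 86.9, 129 and 44.6 on day 4. Every day 1 library was under 2 CPM, every day 2 library was over 180 CPM, and neither day overlapped with the day before it. SEMA6D fell on day 1 (log2 fold change -3.79, SE 0.40, edgeR adjusted p = 1.59e-05) and rose on day 2 (log2 fold change 7.06, SE 0.46, edgeR adjusted p = 1.26e-06). It was still above its starting level on day 4 (log2 fold change 2.10, SE 0.37, edgeR adjusted p = 0.000524), with replicate 4 of that day the lowest. All 3 calls held in each of the 23 alternative analyses.

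SEMA5B, a transmembrane semaphorin with thrombospondin repeats, followed the same course at a lower level. Its values were 13.5, 25 and 26.9 CPM on day 0, 2.58, 2.67 and 3.24 on day 1 and 37.8, 53.9 and 55.1 on day 2. SEMA5B was later at 18.5, 38.5 and 34.5 CPM on day 3 and 19, 55.1 and 50.8 on day 4. The day 1 libraries lay between 2.58 and 3.24 CPM, below every library of days 0 and 2. It fell on day 1 (log2 fold change -2.94, SE 0.43, edgeR adjusted p = 0.000316), rose on day 2 (log2 fold change 4.11, SE 0.45, edgeR adjusted p = 6.45e-05) and was not called between day 4 and day 0 (log2 fold change 0.93, SE 0.40, edgeR adjusted p = 0.0834).

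The region upstream of the transcription start is shown for SEMA6D and SEMA5B, which fell and rose together, and for NTN4, the netrin that rose with them on day 2. Each is the 250 bases before the outermost start that RefSeq lists for the gene on GRCh38.p14, written 5′ to 3′ on the gene's strand, and capitals mark matches to a motif of TCF/LEF, forkhead, GATA or T-box factors, families with known roles in the streak and endoderm. The windows are SEMA6D chr15:47183839-47184088 (plus strand), SEMA5B chr3:123028606-123028855 (minus strand) and NTN4 chr12:95791156-95791405 (minus strand), none of which overlaps an exon of the GENCODE annotation.
SEMA6D: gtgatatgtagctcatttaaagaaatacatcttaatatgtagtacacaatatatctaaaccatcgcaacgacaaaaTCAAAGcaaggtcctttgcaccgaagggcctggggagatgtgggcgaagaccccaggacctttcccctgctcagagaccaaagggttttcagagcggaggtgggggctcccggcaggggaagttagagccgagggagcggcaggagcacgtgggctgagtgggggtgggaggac
SEMA5B: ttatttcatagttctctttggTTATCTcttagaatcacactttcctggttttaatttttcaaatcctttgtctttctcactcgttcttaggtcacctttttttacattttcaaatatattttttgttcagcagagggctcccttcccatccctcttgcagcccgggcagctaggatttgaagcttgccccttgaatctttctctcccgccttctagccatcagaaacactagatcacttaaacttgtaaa
NTN4: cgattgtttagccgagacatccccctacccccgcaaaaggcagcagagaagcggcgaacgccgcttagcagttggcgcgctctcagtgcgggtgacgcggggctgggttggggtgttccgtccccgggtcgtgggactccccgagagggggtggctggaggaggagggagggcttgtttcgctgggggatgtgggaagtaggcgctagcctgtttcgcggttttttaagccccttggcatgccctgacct
The motifs searched on both strands were CTTTGA for TCF/LEF factors, TGTTTAC for forkhead factors, AGATAA for GATA factors and AGGTGT for T-box factors. The SEMA6D window held 1 TCF/LEF match, 174 bases upstream, the SEMA5B window 1 GATA match, 229 bases upstream, and the NTN4 window no match. Windows at the other starts differed. Those of SEMA6D held no match. Those of SEMA5B held no GATA match, and its window at chr3:122993239-122993488 held 1 TCF/LEF match, 153 bases upstream. Gene counts do not tell which of several starts was used. A RefSeq window was found for 58 of the 68 members, 90 windows in all. Of these, 9 held the TCF/LEF letters against 11.2% of all 35116 windows, 1 the forkhead letters against 3.0%, 7 (7.8%) the GATA letters against 9.2% and 2 (2.2%) the T-box letters against 9.6%. Median GC content was 65.4% in the members' windows and 58.0% in all windows. For 53 of the members' 90 windows, the bases after the start lay in a GENCODE transcript of the same gene. Whether the windows printed here are among these 53 is not given. A match is a run of letters only, and nothing about binding was measured.

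**Figure D3:**
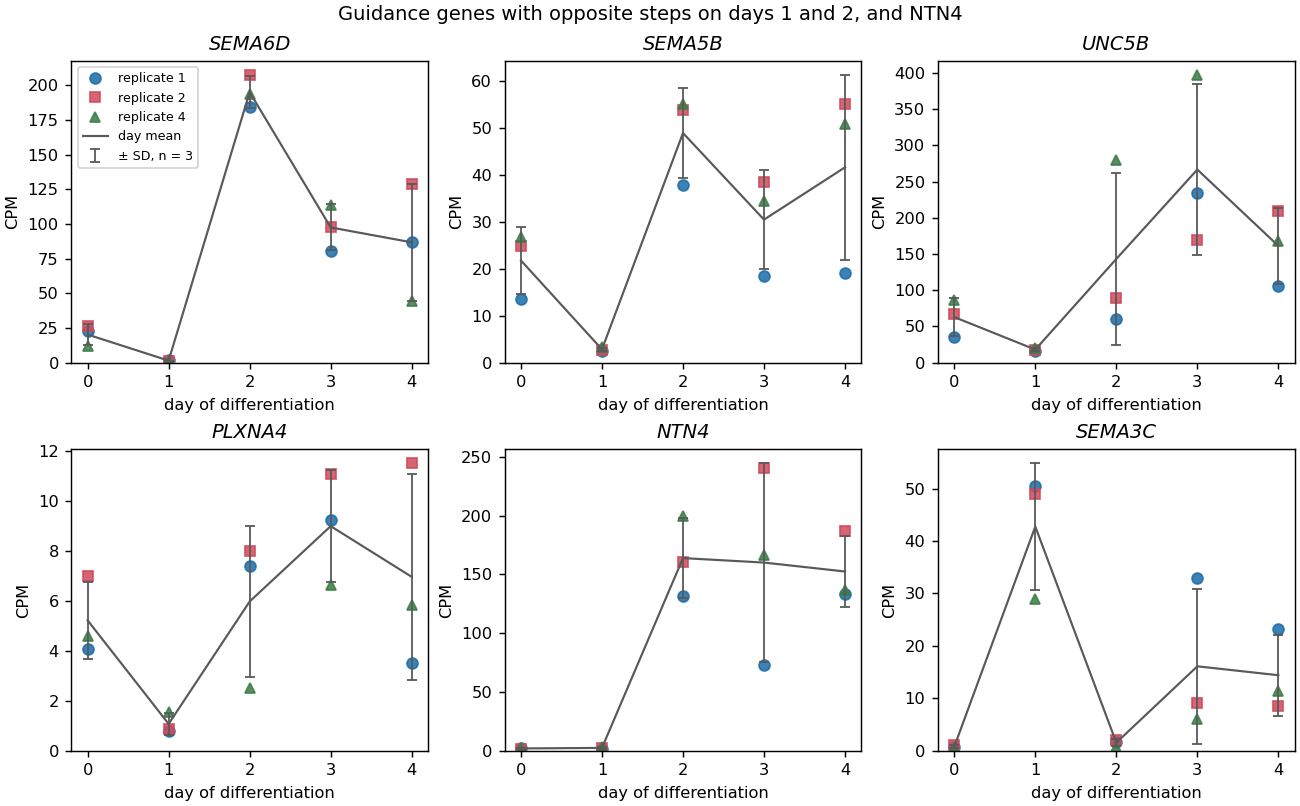
CPM by day for SEMA6D, SEMA5B, UNC5B, PLXNA4, NTN4 and SEMA3C, on a linear axis from 0 for each gene, with a point per library and a line through the day means ± SD (n = 3). SEMA6D, SEMA5B, UNC5B and PLXNA4 dip on day 1, NTN4 steps up on day 2, and SEMA3C peaks on day 1.

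Among the secreted class 3 semaphorins, SEMA3C and SEMA3E rose on day 1, SEMA3A fell on day 1, and SEMA3E and SEMA3F rose on day 2. SEMA3C, a ligand of both neuropilins, was measured at 0.805, 1.05 and 0.438 CPM on day 0, 50.5, 48.9 and 28.9 on day 1 and 1.73, 2.08 and 0.795 on day 2. SEMA3C then stood at 33, 9.16 and 6.12 CPM on day 3 and 23.2, 8.62 and 11.4 on day 4. It was high in every day 1 library, back under 2.5 CPM in every day 2 library, and highest on days 3 and 4 in replicate 1. The changes were log2 fold change 5.80, SE 0.71, edgeR adjusted p = 6.6e-05 on day 1, log2 fold change -4.80, SE 0.68, edgeR adjusted p = 0.000428 on day 2 and log2 fold change 3.39, SE 0.64, edgeR adjusted p = 0.0219 on day 3. The last call was lost without day 2 replicate 1 or 2 or day 3 replicate 1 (adjusted p = 0.101 to 0.124). Day 4 exceeded day 0 (log2 fold change 4.23, SE 0.66, edgeR adjusted p = 0.00023).

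SEMA3E, which can bind plexin D1 without a neuropilin, climbed through the course, with values of 5.32, 4.53 and 5.54 CPM on day 0, 13.5, 12.8 and 10.8 on day 1 and 77.9, 76.2 and 39.2 on day 2. SEMA3E then stood at 200.4, 270.1 and 78.8 CPM on day 3 and 312, 293 and 198 on day 4. Days 1, 2 and 3 were each clear of the day before, and replicate 4 was the lowest library from day 1 onward. SEMA3E rose on day 1 (log2 fold change 1.27, SE 0.39, edgeR adjusted p = 0.0474) and on day 2 (log2 fold change 2.39, SE 0.40, edgeR adjusted p = 0.00156), and day 4 was far above day 0 (log2 fold change 5.71, SE 0.46, edgeR adjusted p = 6.96e-07). The small day 1 call was lost without both replicate 1 libraries of days 3 and 4 and without day 0 replicate 1, 2 or 4, day 1 replicate 1, 2 or 4, day 2 replicate 1 or 2, day 3 replicate 1 or day 4 replicate 2 (adjusted p = 0.0511 to 0.13). Between day 2 and day 3 the log2 fold change was 1.51, SE 0.39, not called by edgeR (edgeR adjusted p = 0.0755) but called by DESeq2 (adjusted p = 0.00578) and by edgeR with the replicate block (adjusted p = 0.0205).

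SEMA3A, the classical collapse-inducing semaphorin, had values of 48.1, 76.1 and 38.1 CPM on day 0, 17.2, 19.7 and 22.6 on day 1 and 34.6, 42.2 and 19.2 on day 2. SEMA3A then stood at 60.1, 90.9 and 31.6 CPM on day 3 and 68.1, 54.5 and 56.9 on day 4. The day 1 libraries were all below the day 0 libraries, while days 3 and 4 spread across the day 0 range. It fell on day 1 (log2 fold change -1.45, SE 0.39, edgeR adjusted p = 0.0258). The SEMA3A call for day 1 was lost without day 0 replicate 2 or day 1 replicate 1, 2 or 4 (adjusted p = 0.0613 to 0.115), and its joint call (edgeR joint adjusted p = 0.0149) was lost without day 1 replicate 1 (adjusted p = 0.0565). SEMA3F, a ligand of neuropilin 2, was measured at 11.1, 15.2 and 40.1 CPM on day 0, 12.9, 9.28 and 20.2 on day 1 and 47.2, 57 and 170.5 on day 2. SEMA3F was later at 66.5, 45.7 and 104 CPM on day 3 and 67.3, 85.4 and 63.5 on day 4. It was highest in replicate 4 of day 2, and no library of day 2 overlapped with day 1. SEMA3F rose on day 2 (log2 fold change 2.69, SE 0.56, edgeR adjusted p = 0.00712), a call that was lost without day 1 replicate 2 (adjusted p = 0.0501), and was higher on day 4 than on day 0 (log2 fold change 1.70, SE 0.54, edgeR adjusted p = 0.0237). The SEMA3F call for day 4 against day 0 was lost without day 0 replicate 1 or 2 or day 4 replicate 2 (adjusted p = 0.0698 to 0.103).

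SEMA3G, a further class 3 ligand, was raised in single libraries. It was measured at 1.14, 2.76 and 4.07 CPM on day 0, 1.94, 1.76 and 2.06 on day 1 and 1.51, 2.21 and 1.4 on day 2. SEMA3G then stood at 35.7, 3.6 and 1.8 CPM on day 3 and 21.7, 2.32 and 3 on day 4. Only replicate 1 of days 3 and 4, the libraries with the low endoderm sum, exceeded 5 CPM. It was called jointly (edgeR joint adjusted p = 0.0404) and in no comparison of days, and the joint call was lost with the replicate block, without both replicate 1 libraries of days 3 and 4 and without day 0 replicate 1 or 2, day 1 replicate 1, 2 or 4 or day 2 replicate 1, 2 or 4 (adjusted p = 0.0573 to 0.619). SEMA3D ranged over 1.95 to 19.1 CPM with no call. SEMA3B stayed at 0 to 3.95 CPM and was higher on day 4 than on day 0 (log2 fold change 3.73, SE 1.10, edgeR adjusted p = 0.0166). The SEMA3B call for day 4 against day 0 was lost without day 0 replicate 2 (adjusted p = 0.0541).

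Class 4 semaphorins are transmembrane ligands of plexins B and D, and of these SEMA4A changed most. SEMA4A values were 14.7, 12.3 and 19.4 CPM on day 0, 0.86, 0.587 and 1.21 on day 1 and 1.57, 1.41 and 2.66 on day 2. SEMA4A was later at 6.58, 5.29 and 6.04 CPM on day 3 and 8.5, 5.63 and 10.4 on day 4. The day 0 libraries exceeded all others, day 1 was near 1 CPM, and days 3 and 4 lay between day 2 and day 0. It fell on day 1 (log2 fold change -4.12, SE 0.42, edgeR adjusted p = 1.35e-05), and the log2 fold change from day 2 to day 3 was 1.67, SE 0.38, not called by edgeR (edgeR adjusted p = 0.0515) but called by DESeq2 (adjusted p = 0.000561) and by edgeR with the replicate block (adjusted p = 0.00735). Day 4 and day 0 gave log2 fold change -0.92, SE 0.37, edgeR adjusted p = 0.0678.

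SEMA4C, a ligand of plexin B2, was measured at 18.3, 27.7 and 74.4 CPM on day 0, 98, 68.1 and 90.0 on day 1 and 53.4, 59.6 and 146 on day 2. SEMA4C was later at 99.9, 93.6 and 197 CPM on day 3 and 93.4, 201 and 216 on day 4. Every day 4 library lay above the day 0 libraries, of which replicate 4 was the highest (log2 fold change 2.08, SE 0.53, edgeR adjusted p = 0.00772). SEMA4D, the ligand of plexin B1, had values of 34.7, 49.99 and 71 CPM on day 0, 26.8, 30.0 and 33.6 on day 1 and 22.5, 22.6 and 15.2 on day 2. SEMA4D then stood at 25, 19.6 and 22.2 CPM on day 3 and 40.2, 27.4 and 37.3 on day 4. All day 0 libraries were above the day 2 and day 3 libraries, and no comparison of days called it, although the joint test did (edgeR joint adjusted p = 0.0093). SEMA4G rose from low levels, with 2.22, 1.31 and 3.39 CPM on day 0, 4.19, 3 and 6.43 on day 1, 6.55, 6.63 and 7.15 on day 2, 8.19, 8.53 and 5.66 on day 3 and 13.2, 10.2 and 9.72 on day 4, and day 4 did not overlap with day 0 (log2 fold change 2.26, SE 0.40, edgeR adjusted p = 0.000583). The joint call of SEMA4C (edgeR joint adjusted p = 0.0439) was lost with library totals alone and without day 0 replicate 1 or 2, day 1 replicate 1, 2 or 4, day 2 replicate 1 or 2, day 3 replicate 1 or day 4 replicate 2 or 4 (adjusted p = 0.0502 to 0.131). SEMA4F, at 5.68 to 18.8 CPM, was higher on day 4 than on day 0 (log2 fold change 1.21, SE 0.37, edgeR adjusted p = 0.0206). The SEMA4F call for day 4 against day 0 was lost without day 0 replicate 1 or 2 or day 4 replicate 2 (adjusted p = 0.0646 to 0.0683). SEMA4B, at 11.4 to 71.3 CPM, was not called.

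SEMA5A, the other class 5 semaphorin, did not dip and rose in both early steps. Its values were 16.8, 22.6 and 19.9 CPM on day 0, 45.9, 54.8 and 49.4 on day 1 and 278, 359 and 279 on day 2. SEMA5A then stood at 252, 344 and 247 CPM on day 3 and 311, 351 and 246 on day 4. Libraries of days 2, 3 and 4 all lay above 240 CPM, and those of days 0 and 1 below 55 CPM. SEMA5A rose on day 1 (log2 fold change 1.34, SE 0.25, edgeR adjusted p = 0.0022) and again on day 2 (log2 fold change 2.61, SE 0.26, edgeR adjusted p = 3.23e-05), and day 4 stayed well above day 0 (log2 fold change 3.94, SE 0.28, edgeR adjusted p = 1.67e-07). SEMA5A and SEMA5B thus moved in opposite directions on day 1 and in the same direction on day 2.

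Class 6 semaphorins are transmembrane ligands of plexins A2 and A4 and, for SEMA6D, plexin A1. SEMA6A was the guidance gene with the highest day 0 level per exon length and fell on day 1. It was measured at 558, 933 and 738 CPM on day 0, 184, 165 and 196 on day 1 and 167, 179 and 260.3 on day 2. SEMA6A was later at 340.4, 169 and 816 CPM on day 3 and 217, 131 and 305 on day 4. Only replicate 4 of day 3 reached into the day 0 range, and the libraries of that day were spread widely. The fall was log2 fold change -2.03, SE 0.46, edgeR adjusted p = 0.00962. The SEMA6A call for day 1 was lost without day 1 replicate 1 or 2 (adjusted p = 0.0522 to 0.0584). On day 4 it was below day 0 (log2 fold change -1.77, SE 0.46, edgeR adjusted p = 0.00827). The SEMA6A call for day 4 against day 0 was lost without day 4 replicate 2 (adjusted p = 0.0546).

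SEMA6B had values of 13.3, 18.2 and 70.5 CPM on day 0, 17.8, 12.7 and 23.6 on day 1 and 23.1, 27.5 and 89.2 on day 2. SEMA6B then stood at 79.7, 41.2 and 164 CPM on day 3 and 66.3, 75.6 and 102 on day 4. In each day replicate 4 was the highest library, and no comparison of days was called. Its joint call (edgeR joint adjusted p = 0.0431) was lost with library totals alone, without both replicate 1 libraries of days 3 and 4 and without day 0 replicate 1 or 2, day 1 replicate 1, 2 or 4, day 2 replicate 2, day 3 replicate 1 or 4 or day 4 replicate 2 or 4 (adjusted p = 0.0517 to 0.12). SEMA6C was measured at 4.07, 6.75 and 14.6 CPM on day 0, 7.02, 7.34 and 11.5 on day 1, 15.5, 21.5 and 25 on day 2, 9.92, 13.3 and 10.5 on day 3 and 20.2, 28.5 and 36.7 on day 4, with day 4 above day 0 in every library (log2 fold change 1.75, SE 0.43, edgeR adjusted p = 0.00555). SEMA7A, anchored to the membrane by a lipid and able to bind integrins as well as plexin C1, was measured at 9.73, 18.4 and 26.2 CPM on day 0, 62.7, 67.1 and 52.1 on day 1 and 30.2, 26.7 and 28.3 on day 2. SEMA7A then stood at 25.4, 19 and 26.7 CPM on day 3 and 22.7, 29.1 and 35.2 on day 4. It peaked on day 1 in all libraries (log2 fold change 1.74, SE 0.33, edgeR adjusted p = 0.00266), was lower on day 2 without passing the edgeR test (log2 fold change -1.09, SE 0.33, edgeR adjusted p = 0.0507) but passing that of DESeq2 (adjusted p = 0.0151), and on day 4 gave log2 fold change 0.68, SE 0.33, edgeR adjusted p = 0.117 against day 0.

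Both neuropilins, the binding partners of class 3 semaphorins, rose on day 1. NRP1 was measured at 8.31, 9.79 and 8.49 CPM on day 0, 209, 225 and 133 on day 1 and 152, 173 and 221 on day 2. NRP1 was later at 312, 229 and 197 CPM on day 3 and 305, 202 and 181 on day 4. All libraries from day 1 onward were above 130 CPM and all day 0 libraries under 10 CPM. The rise was log2 fold change 4.41, SE 0.33, edgeR adjusted p = 1.13e-06, and day 2 gave log2 fold change -0.05, SE 0.29, edgeR adjusted p = 0.943 against day 1. On day 4 NRP1 was above day 0 by log2 fold change 4.69, SE 0.34, edgeR adjusted p = 2.25e-07.

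NRP2 rose in both early steps and had values of 40.3, 48.8 and 50.9 CPM on day 0, 128, 109 and 96.1 on day 1 and 547, 732 and 1030.3 on day 2. NRP2 then stood at 459.6, 669 and 894 CPM on day 3 and 226, 449 and 546 on day 4. Day 2 was the highest day, and on each day from 2 to 4 replicate 1 was the lowest library. The changes were log2 fold change 1.25, SE 0.35, edgeR adjusted p = 0.0303 on day 1, a call that was lost without day 0 replicate 1 or 2 or day 1 replicate 1, 2 or 4 (adjusted p = 0.0626 to 0.123), and log2 fold change 2.79, SE 0.37, edgeR adjusted p = 0.000253 on day 2. Day 4 was above day 0 (log2 fold change 3.13, SE 0.37, edgeR adjusted p = 2.04e-05).

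Of the plexins, the receptors of semaphorins, PLXNA2 rose most. It was measured at 2.53, 4.11 and 6.39 CPM on day 0, 81.8, 74.7 and 62 on day 1 and 249.9, 357 and 657 on day 2. PLXNA2 was later at 252, 251 and 625 CPM on day 3 and 141, 394 and 442 on day 4. Day 0 libraries were under 7 CPM, day 1 libraries were between 62.0 and 81.8 CPM, and later libraries were all above 140 CPM. PLXNA2 rose on day 1 (log2 fold change 4.07, SE 0.55, edgeR adjusted p = 0.000157) and on day 2 (log2 fold change 2.53, SE 0.51, edgeR adjusted p = 0.00599), and day 4 exceeded day 0 (log2 fold change 6.23, SE 0.61, edgeR adjusted p = 3.81e-06). PLXNA4, a receptor of SEMA6A and, with neuropilin 1, of SEMA3A, dipped as SEMA6D did, at 4.07, 6.97 and 4.6 CPM on day 0, 0.777, 0.881 and 1.56 on day 1 and 7.38, 8.01 and 2.52 on day 2. PLXNA4 was later at 9.24, 11.1 and 6.63 CPM on day 3 and 3.51, 11.5 and 5.83 on day 4. Its day 1 libraries were at or below 1.56 CPM and did not overlap with day 0 or day 2. PLXNA4 fell on day 1 (log2 fold change -2.28, SE 0.52, edgeR adjusted p = 0.00985) and rose on day 2 (log2 fold change 2.47, SE 0.53, edgeR adjusted p = 0.00832). The first call was lost without day 1 replicate 1 or 2 (adjusted p = 0.0606 to 0.0661), and the second call was lost without day 1 replicate 1 or 2 (adjusted p = 0.0512 to 0.0588).

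PLXNA3 was measured at 3.01, 9.22 and 15.8 CPM on day 0, 21.1, 19.9 and 23.4 on day 1, 17.7, 23.2 and 29.7 on day 2, 32.8, 31.1 and 50.6 on day 3 and 28.2, 58.8 and 42.6 on day 4, and each day 4 library exceeded each day 0 library (log2 fold change 2.21, SE 0.47, edgeR adjusted p = 0.00245). PLXNA1, the receptor named above for SEMA6D, ranged over 47.2 to 386 CPM. It had no call between consecutive days and was higher on day 4 than on day 0 (log2 fold change 1.25, SE 0.41, edgeR adjusted p = 0.0277). The PLXNA1 call for day 4 against day 0 was lost without day 0 replicate 1 or 2 or day 4 replicate 2 or 4 (adjusted p = 0.0643 to 0.086).

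PLXND1, the receptor of SEMA3E, was measured at 11.8, 29.2 and 53.3 CPM on day 0, 135, 119 and 133 on day 1 and 63.5, 76.2 and 133 on day 2. PLXND1 was later at 159, 66.4 and 174 CPM on day 3 and 128, 60.4 and 133 on day 4. Day 1 libraries were all above 110 CPM and day 0 libraries all below 55 CPM, and from day 2 on the libraries of a day spread widely. PLXND1 rose on day 1 (log2 fold change 2.03, SE 0.50, edgeR adjusted p = 0.0159), a call that was lost without day 0 replicate 1 or 2 or day 1 replicate 1 (adjusted p = 0.0518 to 0.07), and was higher on day 4 than on day 0 (log2 fold change 1.77, SE 0.50, edgeR adjusted p = 0.0131). PLXNB2, a receptor of class 4 semaphorins, had values of 33.9, 62.6 and 104 CPM on day 0, 98.3, 111 and 112 on day 1 and 90.4, 119 and 139 on day 2. PLXNB2 then stood at 97.4, 96.1 and 104 CPM on day 3 and 198, 128 and 186 on day 4. Every day 4 library was above every day 0 library (log2 fold change 1.35, SE 0.34, edgeR adjusted p = 0.00655). The joint call of PLXNB2 (edgeR joint adjusted p = 0.0454) was lost with library totals alone, without both replicate 1 libraries of days 3 and 4 and without day 0 replicate 1 or 2, day 1 replicate 1, 2 or 4, day 2 replicate 2, day 3 replicate 1 or 2 or day 4 replicate 1 or 4 (adjusted p = 0.0553 to 0.122), and that of PLXND1 (edgeR joint adjusted p = 0.0291) was lost without day 0 replicate 1 or 2 or day 1 replicate 1 or 4 (adjusted p = 0.0521 to 0.113). PLXNB1, at 23.4 to 144 CPM, and PLXNB3, at 0.305 to 2.22 CPM, were not called. PLXNC1, at 1.02 to 6.02 CPM, was lower on day 4 than on day 0 (log2 fold change -1.47, SE 0.47, edgeR adjusted p = 0.024). The PLXNC1 call for day 4 against day 0 was lost without day 0 replicate 2 or day 4 replicate 2 or 4 (adjusted p = 0.0829 to 0.107).

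**Figure D4:**
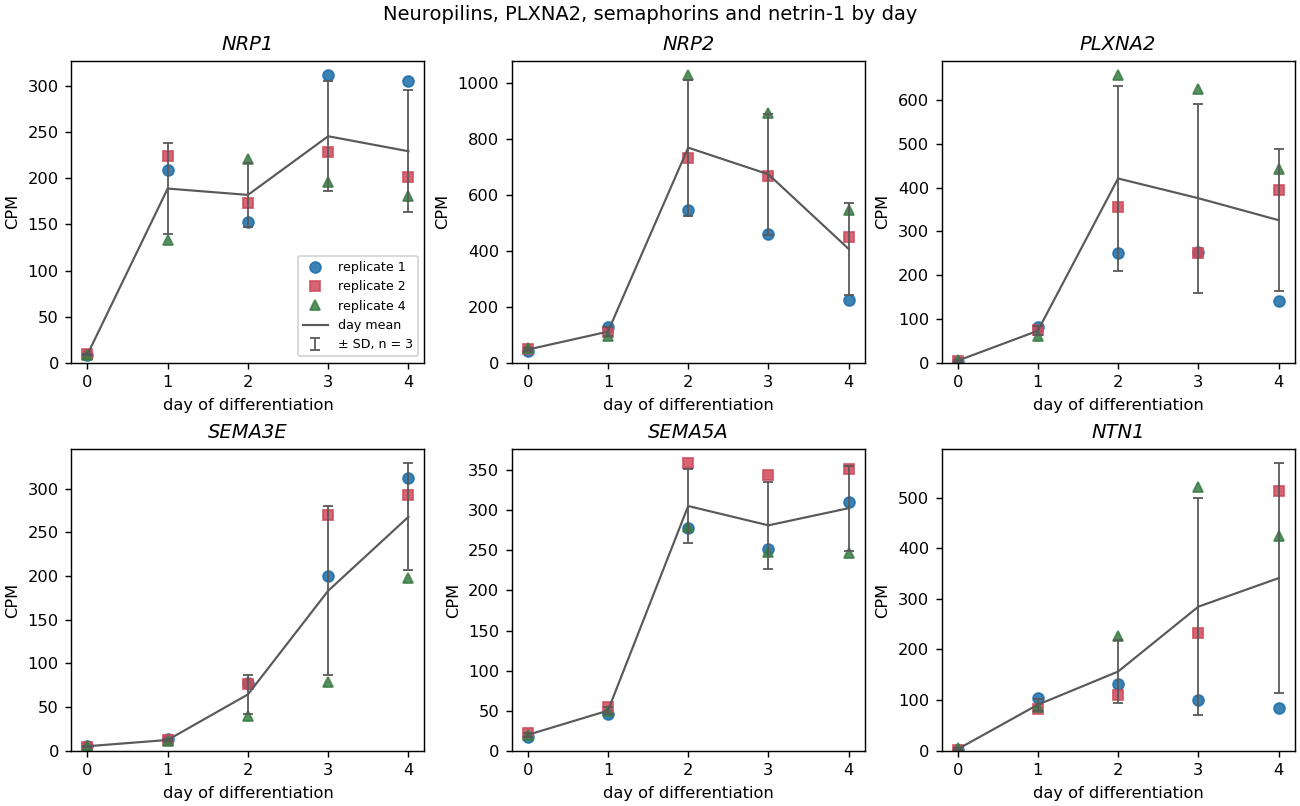
CPM by day for the receptors NRP1, NRP2 and PLXNA2 and for the ligands SEMA3E, SEMA5A and NTN1, on a linear axis from 0 for each gene, with a point per library and a line through the day means ± SD (n = 3). NRP1 and NTN1 are raised from day 1, NRP2, PLXNA2 and SEMA5A step up again on day 2, and NTN1 libraries of days 3 and 4 lie far apart.

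Netrins are secreted, laminin-like proteins, and the pair measured at substantial levels rose on successive days. NTN1, the best known axon attractant, was measured at 1.61, 2.38 and 5.1 CPM on day 0, 104, 81.9 and 86.9 on day 1 and 132, 109.8 and 227 on day 2. NTN1 was later at 101, 232 and 520.4 CPM on day 3 and 84.4, 513 and 425 on day 4. Day 1 libraries were all above 80 CPM against at most 5.10 CPM on day 0, and on days 3 and 4 replicate 1 was far below the others. The day 1 rise was log2 fold change 4.90, SE 0.73, edgeR adjusted p = 0.000339, and day 4 was above day 0 by log2 fold change 6.81, SE 0.79, edgeR adjusted p = 1.75e-05. NTN4, which binds laminin in basement membranes, was measured at 2.13, 1.47 and 2.23 CPM on day 0, 1.8, 2.26 and 3.11 on day 1 and 131, 161 and 199 on day 2. NTN4 then stood at 72.5, 241 and 167 CPM on day 3 and 133, 187 and 137 on day 4. It stayed under 3.2 CPM on days 0 and 1 and was above 70 CPM in all later libraries, with the lowest of these in replicate 1 of day 3. NTN4 was not called on day 1 (log2 fold change 0.30, SE 0.38, edgeR adjusted p = 0.672) and rose on day 2 (log2 fold change 6.09, SE 0.46, edgeR adjusted p = 5.4e-06), and on day 4 it exceeded day 0 (log2 fold change 6.29, SE 0.46, edgeR adjusted p = 2.98e-07). NTN5, at 0 to 0.379 CPM, was not called.

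The Unc5 receptors, which mediate repulsion by netrins, changed places. UNC5D and UNC5A fell on day 1, UNC5C rose on day 1, and UNC5B fell on day 1 and rose on day 2. UNC5D had values of 69.6, 141 and 106 CPM on day 0, 26.7, 31.4 and 36.3 on day 1 and 23.5, 21 and 29 on day 2. UNC5D was later at 61.3, 19 and 36 CPM on day 3 and 43.3, 12.8 and 28.5 on day 4. All day 0 libraries were above all later ones. It fell on day 1 (log2 fold change -1.75, SE 0.45, edgeR adjusted p = 0.0209), a call that was lost without day 0 replicate 2 or day 1 replicate 1, 2 or 4 (adjusted p = 0.0575 to 0.102), and stayed lower on day 4 (log2 fold change -1.90, SE 0.46, edgeR adjusted p = 0.00494). UNC5A, at 0.166 to 4.45 CPM, fell on day 1 (log2 fold change -3.31, SE 0.76, edgeR adjusted p = 0.0101). The UNC5A call for day 1 was lost without day 1 replicate 1 (adjusted p = 0.0667). Against day 0 it was also lower on day 4 (log2 fold change -2.50, SE 0.73, edgeR adjusted p = 0.016). The UNC5A call for day 4 against day 0 was lost without both replicate 1 libraries of days 3 and 4 and without day 0 replicate 4 or day 4 replicate 2 (adjusted p = 0.0519 to 0.0723).

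UNC5C took the reverse course, with 3.69, 3.93 and 1.83 CPM on day 0, 28.4, 27.9 and 26.7 on day 1 and 30.7, 43.3 and 38.9 on day 2. UNC5C then stood at 146, 77.8 and 98.4 CPM on day 3 and 52.9, 36.2 and 49.4 on day 4. Day 0 libraries were under 4 CPM, day 1 libraries between 26.7 and 28.4 CPM, and day 3 libraries the highest. UNC5C rose on day 1 (log2 fold change 3.14, SE 0.35, edgeR adjusted p = 2.76e-05) and on day 3 (log2 fold change 1.51, SE 0.33, edgeR adjusted p = 0.0419). The UNC5C call for day 3 was lost without both replicate 1 libraries of days 3 and 4 and without day 1 replicate 1, 2 or 4, day 2 replicate 1, 2 or 4, day 3 replicate 1 or day 4 replicate 4 (adjusted p = 0.0501 to 0.228). On day 4 it remained above day 0 (log2 fold change 3.87, SE 0.36, edgeR adjusted p = 2.19e-06). UNC5B, also known from endothelium, was measured at 35.2, 66.9 and 86.6 CPM on day 0, 15.9, 18 and 20.2 on day 1 and 60.2, 89.9 and 279.5 on day 2. UNC5B was later at 234, 169 and 397 CPM on day 3 and 106, 209 and 168 on day 4. The day 1 libraries lay below all others, and replicate 4 was the highest on days 2 and 3. UNC5B fell on day 1 (log2 fold change -1.80, SE 0.51, edgeR adjusted p = 0.0346). The UNC5B call for day 1 was lost with library totals alone and without day 0 replicate 2 or 4 or day 1 replicate 1, 2 or 4 (adjusted p = 0.0505 to 0.143). UNC5B rose on day 2 (log2 fold change 2.99, SE 0.54, edgeR adjusted p = 0.00255) and was above day 0 on day 4 (log2 fold change 1.36, SE 0.51, edgeR adjusted p = 0.0489), where the call was lost with library totals alone, with the filter of CPM over 1 and without day 0 replicate 1 or 2, day 1 replicate 1, 2 or 4, day 3 replicate 1 or day 4 replicate 2 or 4 (adjusted p = 0.0508 to 0.174).

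Of the 3 Slit ligands, SLIT2 had its highest day mean on day 1, SLIT1 on day 3 and SLIT3 on day 4. Days 3 and 4 were not told apart for the last pair. Day 4 against day 3 gave log2 fold change -0.55, SE 0.70, edgeR adjusted p = 0.96 for SLIT1. For SLIT3 it gave log2 fold change 0.22, SE 0.47, edgeR adjusted p = 0.976. SLIT2 was high on day 1, at 7.05, 25 and 19 CPM on day 0, 132, 138 and 121 on day 1 and 47.8, 39.9 and 64.4 on day 2. SLIT2 then stood at 36.8, 14.1 and 74.8 CPM on day 3 and 29.9, 8.4 and 23.4 on day 4. Its day 1 libraries exceeded all others. SLIT2 rose on day 1 (log2 fold change 2.94, SE 0.59, edgeR adjusted p = 0.00407), and on day 4 it gave log2 fold change 0.28, SE 0.55, edgeR adjusted p = 0.733 against day 0. SLIT3 was measured at 0.544, 1.79 and 1.92 CPM on day 0, 2.02, 2.29 and 2.28 on day 1 and 16.9, 24.5 and 25.1 on day 2. SLIT3 was later at 62.5, 37.1 and 23.6 CPM on day 3 and 69, 23.9 and 50.6 on day 4. Days 0 and 1 were under 2.5 CPM and all later libraries above 16 CPM. Its rise came on day 2 (log2 fold change 3.33, SE 0.51, edgeR adjusted p = 0.000822), and day 4 exceeded day 0 (log2 fold change 5.07, SE 0.56, edgeR adjusted p = 9.79e-06). SLIT1 was low until day 3, at 0.355, 0.218 and 0.514 CPM on day 0, 0.471, 0.323 and 0.742 on day 1, 0.884, 1.23 and 2.96 on day 2, 14.7, 2.13 and 3.69 on day 3 and 7.99, 4.27 and 1.7 on day 4, with the highest value in replicate 1 of day 3. Day 4 was above day 0 (log2 fold change 3.68, SE 0.79, edgeR adjusted p = 0.00244), and no consecutive step was called. SLIT1 shares annotated exons with the readthrough gene ARHGAP19-SLIT1 on the same strand, so reads there could be assigned to either.

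ROBO2, a Slit receptor, was measured at 3.29, 5.72 and 3.6 CPM on day 0, 9.9, 12.6 and 8.49 on day 1 and 13.3, 20.2 and 24.5 on day 2. ROBO2 then stood at 25.1, 18.4 and 35 CPM on day 3 and 11.6, 8.76 and 6.32 on day 4. It was highest on days 2 and 3 and lower in all day 4 libraries than in any day 3 library. ROBO2 rose on day 1 (log2 fold change 1.30, SE 0.37, edgeR adjusted p = 0.0326). The ROBO2 call for day 1 was lost without day 0 replicate 1 or 4 or day 1 replicate 1, 2 or 4 (adjusted p = 0.0506 to 0.124). The step from day 3 to day 4 was not called by edgeR (log2 fold change -1.56, SE 0.37, edgeR adjusted p = 0.549) but was by DESeq2 (adjusted p = 0.0121). Day 4 was still above day 0 (log2 fold change 1.08, SE 0.36, edgeR adjusted p = 0.0312). The ROBO2 call for day 4 against day 0 was lost without both replicate 1 libraries of days 3 and 4 and without day 0 replicate 1 or 4 or day 4 replicate 1 or 2 (adjusted p = 0.0604 to 0.0962). ROBO1, the Slit receptor with the highest level per exon length, was measured at 148, 153 and 116 CPM on day 0, 195, 224 and 213 on day 1 and 256, 237 and 229 on day 2. ROBO1 was later at 329.5, 217 and 232 CPM on day 3 and 206, 106 and 107 on day 4. No comparison of days was called, and day 4 gave log2 fold change 0.01, SE 0.28, edgeR adjusted p = 0.984 against day 0. Its joint call (edgeR joint adjusted p = 0.0396) was lost without day 0 replicate 1 or 4, day 2 replicate 1 or 2, day 3 replicate 1 or day 4 replicate 2 or 4 (adjusted p = 0.0503 to 0.0655). ROBO3, at 0.496 to 2.9 CPM, was higher on day 4 than on day 0 (log2 fold change 1.64, SE 0.58, edgeR adjusted p = 0.0388). The ROBO3 call for day 4 against day 0 was lost without both replicate 1 libraries of days 3 and 4 and without day 0 replicate 1 or 2 or day 4 replicate 2 or 4 (adjusted p = 0.0506 to 0.12).

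Of the Eph receptors, EPHA2, EPHA4 and EPHB3 rose on day 1, and EPHB2 and EPHB3 rose on day 2. EPHA2 was measured at 20.5, 26.2 and 53.4 CPM on day 0, 299.7, 208 and 212 on day 1 and 128, 134 and 282 on day 2. EPHA2 then stood at 218, 306 and 571 CPM on day 3 and 154, 358 and 586 on day 4. Day 0 libraries were all under 54 CPM and all later ones above 120 CPM, with replicate 4 the highest from day 2 on. EPHA2 rose on day 1 (log2 fold change 2.85, SE 0.53, edgeR adjusted p = 0.00225) and was above day 0 on day 4 (log2 fold change 3.46, SE 0.55, edgeR adjusted p = 0.000245). EPHA4, which binds ephrins of both classes, was measured at 12.9, 19.1 and 10.7 CPM on day 0, 158, 179 and 131 on day 1 and 197, 182 and 146 on day 2. EPHA4 then stood at 147, 106 and 98.8 CPM on day 3 and 132, 60.1 and 103 on day 4. Its libraries after day 0 were all above 60 CPM, against at most 19.1 CPM on day 0. EPHA4 rose on day 1 (log2 fold change 3.45, SE 0.35, edgeR adjusted p = 1.1e-05) and remained higher on day 4 (log2 fold change 2.79, SE 0.34, edgeR adjusted p = 2.3e-05).

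EPHB3 rose in both steps, with 2.58, 2.46 and 4.45 CPM on day 0, 22.3, 15.6 and 18.7 on day 1 and 32.6, 35 and 93.2 on day 2. EPHB3 then stood at 65.5, 37.7 and 69.4 CPM on day 3 and 50.6, 93.5 and 62.1 on day 4. Each day 2 library lay above each day 1 library, and replicate 4 of day 2 was far above the other day 2 values. The changes were log2 fold change 2.57, SE 0.44, edgeR adjusted p = 0.00109 on day 1 and log2 fold change 1.51, SE 0.42, edgeR adjusted p = 0.0375 on day 2, and the second call was lost with library totals alone and without day 1 replicate 1, 2 or 4 or day 2 replicate 4 (adjusted p = 0.0542 to 0.183). Day 4 exceeded day 0 (log2 fold change 4.44, SE 0.48, edgeR adjusted p = 8e-06). EPHB2 was measured at 8.42, 10.8 and 18 CPM on day 0, 8.71, 5.93 and 11.6 on day 1 and 31.2, 64.7 and 94 on day 2. EPHB2 was later at 41.7, 66.9 and 90.7 CPM on day 3 and 50.2, 67.5 and 116 on day 4. Days 0 and 1 overlapped, and day 2 lay above both. EPHB2 rose on day 2 (log2 fold change 2.86, SE 0.48, edgeR adjusted p = 0.00162) and was higher on day 4 than on day 0 (log2 fold change 2.65, SE 0.47, edgeR adjusted p = 0.000653).

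EPHA3 was raised in some late libraries only, at 0.615, 1.19 and 0.457 CPM on day 0, 0.25, 0.264 and 0.0362 on day 1 and 0.755, 0.427 and 0.0822 on day 2. EPHA3 was later at 5.05, 1.95 and 0.388 CPM on day 3 and 25.2, 7.21 and 0.353 on day 4. Replicate 1 of day 4 was the highest, while replicate 4 stayed under 0.5 CPM on every day, so that day 4 overlapped with day 0. Day 4 was called above day 0 (log2 fold change 3.85, SE 1.21, edgeR adjusted p = 0.0227). The EPHA3 call for day 4 against day 0 was lost without both replicate 1 libraries of days 3 and 4 and without day 0 replicate 1 or 4 or day 4 replicate 1 (adjusted p = 0.0616 to 0.112). EPHA6, at 0.226 to 7.24 CPM, was likewise highest in replicate 1 of day 4 and called above day 0 there (log2 fold change 2.42, SE 0.87, edgeR adjusted p = 0.0423). The EPHA6 call for day 4 against day 0 was lost with the replicate block, without both replicate 1 libraries of days 3 and 4 and without day 0 replicate 1, 2 or 4, day 1 replicate 1 or 4 or day 4 replicate 1 (adjusted p = 0.0513 to 0.461). EPHB1, at 2.19 to 15.7 CPM, was below day 0 on day 4 (log2 fold change -1.52, SE 0.47, edgeR adjusted p = 0.0209). The EPHB1 call for day 4 against day 0 was lost without both replicate 1 libraries of days 3 and 4 and without day 0 replicate 2 or day 4 replicate 1, 2 or 4 (adjusted p = 0.0554 to 0.0774). EPHA8, at 0.0982 to 3.01 CPM, was lower as well (log2 fold change -2.44, SE 0.75, edgeR adjusted p = 0.0202). The EPHA8 call for day 4 against day 0 was lost without both replicate 1 libraries of days 3 and 4 and without day 0 replicate 4 or day 4 replicate 1 or 2 (adjusted p = 0.055 to 0.104). Its joint call (edgeR joint adjusted p = 0.0479) was lost with DESeq2's size factors in edgeR, with library totals alone, with no filter on low counts, without both replicate 1 libraries of days 3 and 4 and without day 0 replicate 2 or 4, day 1 replicate 1, 2 or 4, day 2 replicate 1, 2 or 4, day 3 replicate 1 or 2 or day 4 replicate 1, 2 or 4 (adjusted p = 0.0539 to 0.114). EPHA10 was at 1.25 to 1.70 CPM on day 1 and at most 0.362 CPM in every other library, and its joint call (edgeR joint adjusted p = 0.0249) was lost without day 1 replicate 1, 2 or 4 (adjusted p = 0.0631 to 0.0799).

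Uncalled Eph receptors included abundant ones. EPHB4, the receptor of ephrin B2, ranged over 78.2 to 247 CPM, and EPHA1, which like EPHB4 was among the 3 highest members per exon length on day 0, over 34.5 to 276 CPM. EPHA7 was at 4.49 to 21.8 CPM, EPHB6, which lacks kinase activity, at 7.68 to 24.9 CPM, and EPHA5 at 0 to 1.74 CPM. Between day 4 and day 0 the log2 fold changes were 0.38, SE 0.38 for EPHB4 and -1.14, SE 0.54 for EPHA1.

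**Figure D5:**
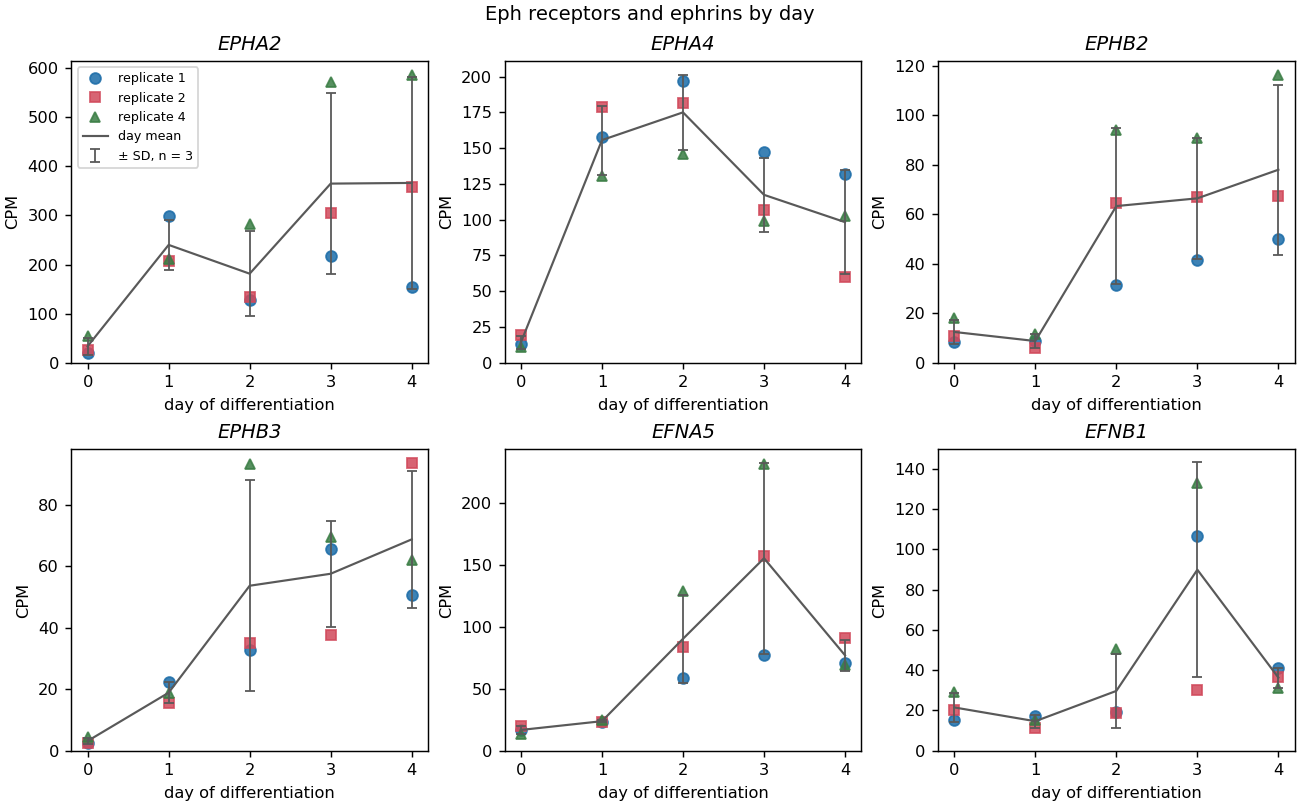
CPM by day for the Eph receptors EPHA2, EPHA4, EPHB2 and EPHB3 and the ephrins EFNA5 and EFNB1, on a linear axis from 0 for each gene, with a point per library and a line through the day means ± SD (n = 3). EPHA2 and EPHA4 are raised from day 1 and EPHB2 and EFNA5 from day 2, and EFNB1 is raised in replicates 1 and 4 of day 3.

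Class A ephrins are anchored to the membrane by a lipid, and among them EFNA2 rose on day 1 and EFNA5 on day 2. EFNA5 was measured at 16.6, 20.2 and 13.4 CPM on day 0, 23.3, 23.5 and 24.7 on day 1 and 58.3, 83.7 and 129 on day 2. EFNA5 was later at 77.2, 157 and 231 CPM on day 3 and 70.3, 91.1 and 69.1 on day 4. Day 2 libraries were all above 58 CPM and did not overlap with days 0 and 1, and the highest values were in replicates 2 and 4 of day 3. EFNA5 rose on day 2 (log2 fold change 1.92, SE 0.37, edgeR adjusted p = 0.00458) and was above day 0 on day 4 (log2 fold change 2.20, SE 0.38, edgeR adjusted p = 0.000469). EFNA2 was measured at 4.24, 3.14 and 6.2 CPM on day 0, 12.3, 10.8 and 14.4 on day 1 and 19.2, 20.5 and 26.8 on day 2. EFNA2 then stood at 8.83, 18.6 and 15.6 CPM on day 3 and 18.1, 26.8 and 32.2 on day 4. All day 1 libraries exceeded all day 0 libraries. EFNA2 rose on day 1 (log2 fold change 1.46, SE 0.36, edgeR adjusted p = 0.0149), a call that was lost without day 0 replicate 1 or 2 or day 1 replicate 1 or 4 (adjusted p = 0.0501 to 0.0812), and was higher on day 4 than on day 0 (log2 fold change 2.50, SE 0.37, edgeR adjusted p = 0.000149).

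EFNA3 peaked on day 1 and fell on day 2, at 4.76, 2.36 and 7.46 CPM on day 0, 19.1, 9.9 and 14.4 on day 1 and 1.66, 1.98 and 3.32 on day 2. EFNA3 was later at 6.93, 2.43 and 4.47 CPM on day 3 and 3.95, 7.89 and 4.45 on day 4. Every day 2 library was below every day 1 library (log2 fold change -2.64, SE 0.52, edgeR adjusted p = 0.00484). EFNA3 and EFNA4 share annotated exons with a readthrough transcript, so reads there could be assigned to either. EFNA4, at 5.98 to 24.1 CPM, was not called. EFNA1, at 0.608 to 6.53 CPM, was called only jointly (edgeR joint adjusted p = 0.0467), and that call was lost with library totals alone, with the filter of CPM over 1, without both replicate 1 libraries of days 3 and 4 and without day 0 replicate 1 or 2, day 1 replicate 1, 2 or 4, day 2 replicate 1 or 2, day 3 replicate 1 or 4 or day 4 replicate 2 (adjusted p = 0.0503 to 0.114).

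Class B ephrins span the membrane and can signal back into the cell that carries them. EFNB1 was measured at 15.4, 20.02 and 29.1 CPM on day 0, 17.4, 11.1 and 15.4 on day 1 and 19.5, 18.9 and 50.7 on day 2. EFNB1 then stood at 107, 30.3 and 133 CPM on day 3 and 41.2, 36.5 and 31.2 on day 4. Replicates 1 and 4 of day 3 stood above all other libraries, and edgeR called no comparison of days, although the joint test called it (edgeR joint adjusted p = 0.00321). From day 2 to day 3 it gave log2 fold change 1.60, SE 0.49, edgeR adjusted p = 0.131, and DESeq2 (adjusted p = 0.0284) and edgeR with the replicate block (adjusted p = 0.0454) called that step. EFNB3 was measured at 13.3, 9.85 and 20.5 CPM on day 0, 12.1, 7.78 and 12.1 on day 1 and 22.6, 22.1 and 24.6 on day 2. EFNB3 then stood at 35.4, 17.9 and 24.1 CPM on day 3 and 28, 22.5 and 31 on day 4. Every day 4 library was above every day 0 library (log2 fold change 0.90, SE 0.34, edgeR adjusted p = 0.0492). The EFNB3 call for day 4 against day 0 was lost with library totals alone, with no filter on low counts, without both replicate 1 libraries of days 3 and 4 and without day 0 replicate 1 or 2, day 1 replicate 1 or 4, day 2 replicate 1 or 2 or day 4 replicate 1, 2 or 4 (adjusted p = 0.0516 to 0.158). Its joint call (edgeR joint adjusted p = 0.0185) was lost without day 1 replicate 2 (adjusted p = 0.0629). EFNB2 ranged over 7.81 to 83.2 CPM with no call, and its day 4 libraries alone spanned 7.81 to 63.4 CPM.

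To compare levels between genes, CPM was divided by the length of the gene's merged exons in kilobases, from a GRCh38 annotation that may differ from the one the authors counted on. On day 0 the highest members on this scale were SEMA6A at 80.6 ± 20.4, EPHA1 at 49.6 ± 29.3 and EPHB4 at 30.9 ± 16.6 CPM per kilobase. The spread of EPHA1 overlaps with that of its neighbours. By day 2 the order had changed to NRP2 at 74.9 ± 23.7, EPHA2 at 45.7 ± 21.9, NTN4 at 44.7 ± 9.29 and PLXNA2 at 36.8 ± 18.4 CPM per kilobase, whose ranges of mean ± SD overlap between neighbours. On day 4 EPHA2 at 92.4 ± 54.5, NTN1 at 57.2 ± 38, SEMA4C at 47.9 ± 18.8 and NTN4 at 41.6 ± 8.2 CPM per kilobase led, again with overlapping spreads. Summed over all 68 members, the level was 2352 ± 691 CPM on day 0, 2967 ± 139.5 CPM on day 1, 4890.0 ± 1293 CPM on day 2, 5908 ± 1575 CPM on day 3 and 5247 ± 765 CPM on day 4. The semaphorin sum was 1112 ± 269.9 CPM on day 0, 571 ± 32.5 CPM on day 1 and 1188 ± 177 CPM on day 2, and SEMA6A, at 743 ± 188 CPM, made up most of the day 0 sum.

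Genes that act with these ligands and receptors were counted in the same fit. From a list of 60 receptors, adaptors and cytoskeletal effectors outside the symbol rule, 58 were tested. On day 1, 5 were higher (8.62%, against 5.49% of all genes) and 6 lower (10.3%, against 4.88%). On day 2, 4 were higher (6.90%, against 4.93%) and 2 lower (3.45%, against 3.34%). Day 4 exceeded day 0 in 17 (29.3%, against 18%) and was below it in 8 (13.8%, against 16.2%). The day 1 count of higher genes became 8 without day 0 replicate 4, and the day 2 count of higher genes became 2 without day 1 replicate 1 or 2. The 2 lower genes of day 2 became 1 without day 1 replicate 1 or 2 or day 2 replicate 1 or 4, and 0 without day 1 replicate 4 or day 2 replicate 2. edgeR called 0 between days 2 and 3, where 16 (27.6%) had an unadjusted p under 0.05 and DESeq2 called 8 (5 higher, 3 lower). In that step edgeR with the replicate block called 2 higher and 3 lower, and without day 4 replicate 1 edgeR called 1 higher and 1 lower. The matching shares of all genes are not given for these counts. Between days 3 and 4 edgeR also called 0, where 4 (6.90%, against 6.17% of all genes) had an unadjusted p under 0.05. DESeq2 called 0 of them and 66 of all genes. FLRT3, an adhesion protein that binds Unc5 receptors, had 3.7 ± 2.35 CPM on day 0 and 166 ± 30.3 CPM on day 1 and rose (log2 fold change 5.49, SE 0.69, edgeR adjusted p = 8.39e-05). CHL1, a cell adhesion protein that associates with neuropilin 1, went from 0.785 ± 0.19 to 28.5 ± 6.62 CPM on day 1 (log2 fold change 5.18, SE 0.41, edgeR adjusted p = 1.22e-06) and to 197 ± 56.1 CPM on day 2 (log2 fold change 2.79, SE 0.36, edgeR adjusted p = 0.000253). FLT1, a VEGF receptor that can pair with neuropilins, fell on day 1, with 196 ± 39.3 CPM before and 21.4 ± 2.41 CPM after (log2 fold change -3.20, SE 0.47, edgeR adjusted p = 0.00035), and so did RND1, a GTPase that binds plexins, with 5.48 ± 1.62 and 0.657 ± 0.105 CPM (log2 fold change -3.06, SE 0.52, edgeR adjusted p = 0.000982).

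On day 2, SRGAP3, a GTPase-activating protein downstream of Robo, rose, with 1.02 ± 0.552 CPM on day 1 and 11.3 ± 2.22 CPM on day 2 (log2 fold change 3.46, SE 0.45, edgeR adjusted p = 0.000243), and so did L1CAM, a neuropilin 1 partner, with 16.7 ± 2.57 and 109.8 ± 43.8 CPM (log2 fold change 2.72, SE 0.59, edgeR adjusted p = 0.00975). The L1CAM call for day 2 was lost without day 1 replicate 1 or 2 (adjusted p = 0.0571 to 0.0646). DSCAM, a netrin receptor, rose as well, with 0.536 ± 0.119 and 5.76 ± 1.58 CPM (log2 fold change 3.41, SE 0.74, edgeR adjusted p = 0.00966), a call that was lost without day 1 replicate 1 or 2 (adjusted p = 0.0571 to 0.0587), and on day 4 was at 41 ± 37.1 CPM (log2 fold change 6.70, SE 0.86, edgeR adjusted p = 4.19e-05 against day 0). MET, a receptor kinase that can associate with plexins B, was lower on day 4, at 1.87 ± 1.38 CPM, than on day 0, at 37.3 ± 10.2 CPM (log2 fold change -4.33, SE 0.57, edgeR adjusted p = 5.15e-05). On day 4, CHL1 (log2 fold change 6.65, SE 0.44, edgeR adjusted p = 1.07e-07) and FLRT3 (log2 fold change 5.84, SE 0.70, edgeR adjusted p = 2.27e-05) were still above day 0.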

How the data were processed

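RNA of H9 cells was taken on 5 days with 3 libraries per day. Per the labels' protocols, libraries were polyA-selected and directional. TopHat2 2.0.14 and the build hg19 are named in the submitters' processing notes, and no counting program, gene annotation or strand setting is given in these sources. The authors deposited raw read counts per gene symbol, all of them even. Of 23398 entries, 44 identical repeats were dropped and 8 repeats summed, leaving 23346 symbols. Each column was matched to its sample by title.

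Differences were tested with edgeR's quasi-likelihood test (edgeR 4.0.16, limma 3.58.1, R 4.3.3): TMM scaling, filterByExpr by day (17401 genes), a mean per day, all 15 libraries in a single fit, Benjamini-Hochberg adjustment over all genes tested, and calls at an adjusted p under 0.05. Tables were made with Python 3.11.15 and pandas 2.3.3. The SE was taken as the log2 fold change over the square root of F. Tested on simulated data for day 1 against day 0 (17030 genes), edgeR recovered 2% of 2-fold and 52% of 4-fold changes with 1 unchanged gene called. Only 100 genes were changed at each fold there, while 956 higher and 850 lower genes were called in the data. An adjusted p is harder to pass when few genes change, so the recovery in the data may be higher. Alternatives were DESeq2 1.42.0, edgeR with the size factors of DESeq2 or with library totals alone, a filter of CPM over 1 in 3 libraries or none, halved counts, the replicate number as a block, and libraries left out. Deviations from the day means correlated over 0.1 in all 3 same-numbered pairs of days 2 and 3 (0.272 to 0.619) and of days 3 and 4 (0.221 to 0.625), so for these steps the numbers were taken to pair the libraries, from the data alone. In each other comparison 2 of 3 pairs did so, and the block was still fitted over all 15 libraries.

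The members and the list of other pathway genes were chosen with earlier results of these data known. Members called jointly with a day mean of at least 5 CPM, and SEMA6D, are given in every library, and other members by their range. In each comparison up to 4 called pathway genes with the largest change and a day mean of at least 5 CPM are named. Promoter sequences are RefSeq's on GRCh38.p14.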

Additional observations from a re-analysis of the deposited data

How the results depend on the processing

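Of the 95 single-gene calls behind the text, each recomputed under 23 alternatives, 2043 of 2185 values kept the call, 142 lost it and 0 reversed. For any call, most of the single left-out libraries came from neither of the days compared. Such alternatives change the test little, so this total overstates how firmly a call holds. DESeq2, its size factors in edgeR and halved counts lost 0 of the 95, the fit without both replicate 1 libraries of days 3 and 4 lost 10, and single left-out libraries lost 0 to 19, the most without day 1 replicate 1. Counts of members moved past 1.5 times as follows. The shares of all genes called are not given for these counts or for those below, so they are not set against a background. With DESeq2, day 3 against day 2 had 6 members higher (EFNB1, SEMA3C, SEMA3E, SEMA3G, SEMA4A and UNC5C) and day 4 against day 3 had 1 lower. On day 2 it also called UNC5A, EFNB3, SEMA4A and SEMA6C higher and SEMA7A lower (adjusted p = 0.00982 to 0.0364). Without both replicate 1 libraries, day 3 had 1 member higher and day 4 had 3 lower than day 0. Among the other pathway genes, DESeq2 called 8 higher on day 2, and 5 higher and 3 lower on day 3.

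Leaving out libraries in turn gave 11 to 21 members higher and 3 to 9 lower on day 1, 11 to 16 and 2 to 3 on day 2, 0 to 3 higher on day 3, 25 to 35 higher and 1 to 6 lower on day 4 against day 0, and 39 to 49 jointly. For the other pathway genes these ranges were 4 to 8 and 4 to 7 on day 1, 2 to 5 and 0 to 3 on day 2, 0 to 1 and 0 to 1 on day 3, 13 to 19 and 7 to 9 on day 4 against day 0, and 24 to 30 jointly. The cause was not tested.

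Same-numbered libraries deviated together with a correlation over 0.1 in 21 of 30 pairs (median 0.226, lowest -0.205) and other libraries in 17 of 60 (median -0.152), and not every pair exceeded it for day 1 against day 0, day 2 against day 1 or day 4 against day 0 (lowest 0.0373, -0.075 and -0.19), where the libraries share only a number. With the replicate block, 6 members were lower on day 2 and 5 higher on day 3, and among the other pathway genes 8 were higher on day 2, and 2 higher and 3 lower on day 3. Between days 2 and 3 it called EFNB1, SEMA3E and SEMA4A besides the 2 members called without it, and between days 3 and 4 it changed no member's call. Changes of about 2-fold were mostly not recovered in simulated data at this number of libraries, where fewer genes changed than were called in the data. The share of such changes missed in the data was not tested.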
